A study of Mus musculus with 6 samples.

Results

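Egr2, Gbx2, Otx2, En1, En2, Irx1, Irx2 and Irx3 are transcription factor genes by which embryologists recognise the segments next to rhombomere 4 and the isthmus, the border of midbrain and hindbrain. All 8 genes were measured, by 9 of the 45037 probe sets that are not array controls. Egr2 had 2 probe sets and each other gene had 1. Members were taken by symbol from probe sets assigned to exactly 1 gene, and the level of a gene is that of its probe set with the highest mean. This gave 8 of 18193 genes.

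The arrays hold total RNA of fluorescent cells sorted from dissected mouse hindbrains at E10.5, pooled over whole litters. In both genotypes an IRES-tauGFP cassette at the Hoxb1 locus made the cells fluorescent, so the sort depended on that locus being active. The control group, Hoxb1-IRES-tauGFP, made normal Hox-B1 protein (n = 3 arrays), and the swap group made another Hox protein from the same locus (n = 3 arrays). Replicates are independent biological ones, per the series design, while neither labels nor design say whether embryos carried 1 or 2 modified alleles. Rhombomere 4 is the labelled tissue. The comparison asks what replacing Hox-B1 by a relative does to the transcripts of these cells. Within it, the signal of the 8 genes in the sorted cells is described, and whether that signal differed between the genotypes. Several of these genes are also known from other cells, so their signal does not measure how much neighbouring tissue was sorted. Values by array are listed in the order of arrays 1, 2 and 3 of each group.

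The hindbrain forms as a row of segments, the rhombomeres, that keep separate identities. Egr2, also called Krox20, is the zinc-finger factor of rhombomeres 3 and 5, which flank rhombomere 4. At the front of the hindbrain, Otx2 on the midbrain side and Gbx2 on the hindbrain side repress each other and set the position of the isthmus. En1 and En2 are engrailed homeodomain factors expressed on both sides of that border, and En1 is also known from a class of ventral interneurons in the hindbrain and spinal cord. Irx1, Irx2 and Irx3 are Iroquois homeodomain factors that pattern the neural tube and take part in early neuronal specification.

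The arrays had median intensities of 118 to 139. In the list of branchiomotor neurons, 12 of 12 measured genes had a mean over all 6 arrays at or above the median level, as did 61.4% of all genes. That level, the median of all probe sets, is an intensity of 114. The brightest, Ebf1, Isl1 and Tbx20, had mean log2 intensities of 13.73, 13.71 and 13.41 in control arrays. In swap arrays they had 13.88, 13.84 and 13.60. For 2 of the 12 genes every swap array was below every control array, as for 828 of all 18193 genes. Hoxb1 itself averaged a log2 intensity of 12.63 in control arrays against 12.13 in swap arrays, and each swap array was lower than each control array. Where that probe set lies in the transcript was not determined, so it does not check the labels. Precision is limited by the number of arrays. Detection calls do not come with the table, so no gene was called absent. Of 22 measured genes of adult organs such as testis, pancreas and milk gland, 3 lay at or above the median level, against 7 of the 8 members and 61.4% of all genes. Gbx2, En1 and Irx1 were only just above the median level, with mean log2 intensities of 7.06, 6.95 and 6.91 against 6.83. Probe sets differ in brightness for reasons other than transcript level, so these shares describe signal only. In bulk samples, fewer cells of a type and less RNA per cell cannot be told apart.

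None of the 8 genes passed the test between the genotypes. With an adjusted p under 0.05 as the threshold, limma called 0 of 9 member probe sets and 0% of all 45037, of which 2060 had an unadjusted p under 0.05. Otx2 was the member with the largest difference, at about 2-fold higher intensity in the swap arrays, and 1 of 8 members had groups of arrays that did not overlap, against 8.85% of all genes. At an unadjusted p under 0.05 there was 1 of 8 members, again Otx2, against 3.63% of all genes. The median log2 difference of the 8 members, swap minus control, was 0.22, with 6 higher and 2 lower, and over all genes it was 0.01, with 50.9% higher.

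**Figure D1:**
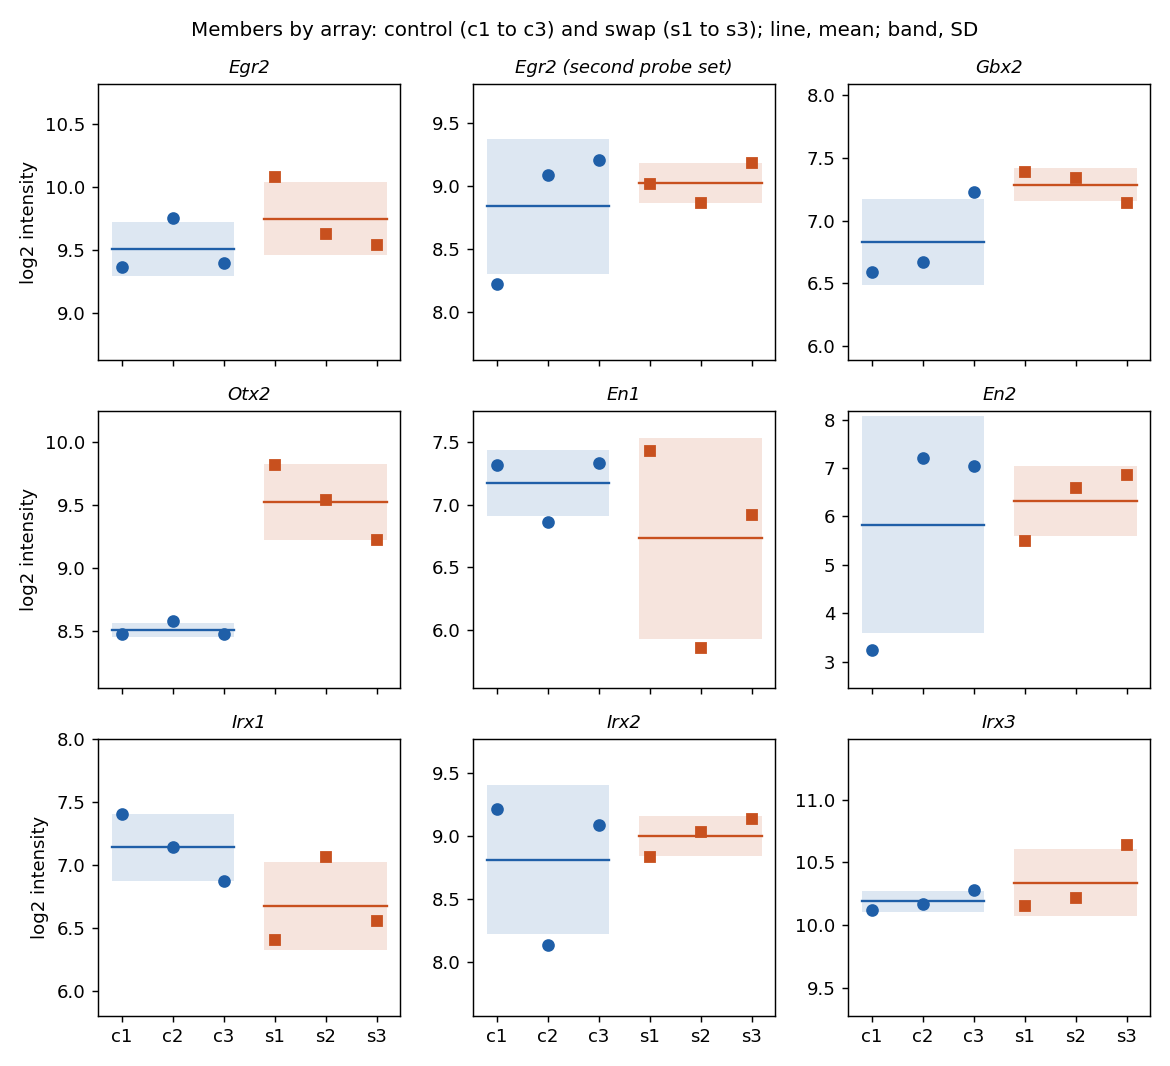
Log2 intensity of each member probe set (vertical axes, each panel with its own range) in control arrays 1 to 3 (blue circles, c1 to c3) and swap arrays 1 to 3 (orange squares, s1 to s3), with lines at the group means and bands of 1 SD. Otx2 is the panel in which the groups do not overlap, and En2 is the panel in which control array 1 lies at 3.25, far below the other 5 arrays.

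Otx2, a homeodomain factor needed for forebrain and midbrain, had control intensities of 356, 382 and 357. The swap arrays gave 905, 745 and 597. The control arrays lay within 0.10 of each other on the log2 scale, the swap arrays spread over 0.60, and every swap array was above every control array. Mean log2 intensities were 8.51 ± 0.06 (control) and 9.53 ± 0.30 (swap, SD, n = 3 arrays per genotype). The log2 difference was 1.02 (SE 0.24, 95% interval 0.42 to 1.62), a fold of 2.03 with an interval of 1.33 to 3.08. limma's adjusted p over all probe sets was 0.818, and the two-sided exact permutation p was 0.1, the smallest that 3 against 3 arrays can give. Among all genes, 5.09% had a log2 difference of 1 or more in the same direction. With 1 array left out, the Otx2 difference ranged from 0.87 to 1.17. Since its groups do not overlap, leaving out 1 array could not turn it.

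Swap array 1, the highest in Otx2, also had the highest ratio of 3′ to 5′ signal for the control transcripts of Actb and Gapdh, at log2 ratios of 2.92 and 1.93. The other 5 arrays had 2.41 to 2.67 for Actb and 1.23 to 1.41 for Gapdh. This ratio rises when RNA is degraded or amplified incompletely, and its part in the result was not tested. Without swap array 1 the Otx2 difference was 0.87.

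Other genes of the forebrain and midbrain were read beside Otx2. That list, without Otx2 itself, had 16 of 18 genes measured, and 0 passed limma's test in either direction. Its median log2 difference was 0.39, with 12 higher and 4 lower, and 6 of the 16 reached the median level. Groups of arrays did not overlap for 3 of its genes, the same 3 with the smallest p, and all were higher in the swap arrays, a pattern shown by 4.3% of all genes. Rax, an eye-field homeodomain factor, had control log2 intensities of 6.03, 3.91 and 4.12, against 7.19, 6.11 and 6.56 for the swaps. Its log2 difference was 1.94 (SE 0.65), at a mean level below the median. For Vax1, a homeodomain factor of the ventral forebrain and optic stalk, the difference was 1.23 (SE 0.43), also at a low level. Lhx2, a LIM homeodomain factor of forebrain and of dorsal hindbrain interneurons, had a difference of 1.01 (SE 0.37), from a control mean of 6.83 to a swap mean of 7.83. None came near the threshold, with an adjusted p of 1.00 in limma for each of these 3 genes. With 1 array left out, the differences ranged from 1.55 to 2.61 for Rax, 0.83 to 1.62 for Vax1 and 0.69 to 1.26 for Lhx2. Since their groups do not overlap, leaving out 1 array could not turn them. The intensities of the list summed to between 1943 and 2197 in the control arrays and to 3124, 2491 and 2479 in swap arrays 1, 2 and 3. The highest sum is that of swap array 1, the array with the highest 3′ to 5′ ratios, whose part in it was not tested. Such a sum weighs the brightest genes most. How often sums of a list like this separate the genotypes was not determined. Otx1, the close relative of Otx2, had a difference of -0.16 (SE 0.75), which turned to 0.38 without control array 1, so it could not be placed. No member of this list had a 95% interval within 2-fold. Whether cells from outside the hindbrain took part in the Otx2 signal was not tested.

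The start regions of Otx2 were searched for TAATTA, the core that many homeodomain proteins bind, which reads the same on both strands. The RefSeq table of the assembly GRCm38.p6 has 13 entries for 6 of the 8 genes, namely Egr2, Gbx2, Otx2, En1, Irx2 and Irx3, each covering 250 bases before and 50 bases after a start site. En2 and Irx1 have no entry. The core occurred in 2 of these 13 entries, both of Otx2, and in 5.29% of 32851 entries of all genes. Otx2 has 4 of the 13 entries, so the matches come from 1 gene and the 2 shares are not alike. The 4 stretches of 30 bases that hold it are shown because Otx2 was the member with the largest difference, each from the minus strand of chromosome 14 in the direction of transcription, with the core in capitals. They lie at chr14:48667768-48667797, chr14:48665326-48665355, chr14:48665266-48665295 and chr14:48665246-48665275, in this order.
Otx2 stretch 1: tgtccatcatttTAATTAtacaattagttc
Otx2 stretch 2: cacgacggcctgTAATTAagggacgtgtgc
Otx2 stretch 3: aaacatttattaTAATTAattctcggacga
Otx2 stretch 4: tctcggacgaggTAATTAttattgagcgag
The last 3 stretches come from a single entry, in which stretches 3 and 4 overlap, and the first comes from an entry further upstream. A match describes the letters only, and no binding was measured in these arrays.

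Gbx2, the homeodomain factor on the hindbrain side of the isthmus, had control intensities of 96.6, 102 and 150. The swap arrays gave 167, 162 and 141. Control array 3 lay above swap array 3, so the groups overlap, and the other 2 control arrays were the lowest of the 6. This gave a log2 difference of 0.46 (SE 0.26, 95% interval -0.19 to 1.11), with limma's adjusted p at 1.00. Its spread was small for its level. Among 7066 probe sets within 0.5 of its mean on the log2 scale, 9.95% had an SD within groups as small or smaller. The interval still allows a fold from 0.874 to 2.16. With 1 array left out the difference ranged from 0.34 to 0.66, and it was 0.29 without both arrays numbered 1.

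The log2 ratio of Otx2 to Gbx2 signal within an array follows the genes of both sides of the border together. The control arrays gave 1.88, 1.91 and 1.25, against 2.44, 2.20 and 2.08 for the swaps. The ratios of the genotypes do not overlap, with means of 1.68 for control and 2.24 for swap. The highest control ratio was 1.91 and the lowest swap ratio 2.08. This restates the larger difference of Otx2, since the difference of Gbx2 had the same sign. Otx2 alone already separates the groups, as do 8.85% of all genes in either direction. The share of gene pairs whose ratios separate was not determined. Gbx1, the relative of Gbx2 in the dorsal neural tube, had a log2 difference of -0.79 (SE 0.45), the smallest p among 9 measured paralogs of the members, none of which passed limma's test.

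En1 had intensities of 159, 116 and 161 in the controls, against 172, 57.9 and 121 in the swaps. The highest and the lowest of the 6 values were both swap arrays, so the control arrays lay inside the range of the swap arrays. The log2 difference was -0.44 (SE 0.45, 95% interval -1.55 to 0.67). It rested on swap array 2, without which it was -0.00080.

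En2 was the member with the widest spread. Its control intensities were 9.49, 148 and 131, against 45.0, 96.2 and 116 for the swaps. Control array 1 was the lowest by a wide margin, swap array 1 was next, and the remaining 4 arrays lay between 96.2 and 148. The SD of the control arrays was 2.24 on the log2 scale, and 95.9% of 7102 probe sets of like level had an SD within groups as small or smaller. Swap minus control came to a log2 difference of 0.48 (SE 1.15, 95% interval -2.36 to 3.32), which allows a fold from 0.195 to 9.99. It turned to -0.81 without control array 1 and to -0.40 without both arrays numbered 1. En2 was the 1 member whose mean lay below the median level, and these arrays could not place its difference in either direction.

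Cnpy1, a gene of FGF signalling at the isthmus, is the next protein-coding gene to En2 in the RefSeq table. Its control log2 intensities were 5.91, 7.75 and 8.22, against 7.93, 7.68 and 8.83 for the swaps. As in En2, control array 1 was the lowest. Unlike En2, swap array 1 was not low, and the log2 difference was 0.85 (SE 0.68). With 1 array left out it ranged from 0.16 without control array 1 to 1.31 without control array 3.

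The isthmic organiser list, the secreted factors, transcription factors and FGF feedback genes around the border, had 17 of 18 genes measured. limma called 0 higher and 0 lower, and the median log2 difference was -0.10, with 8 higher and 9 lower. Fgf8, the main signal of the organiser, was dim in all arrays, with mean log2 intensities of 2.46 (control) and 2.22 (swap). Wnt1, a secreted signal on the midbrain side, had control log2 intensities of 7.94, 5.68 and 4.69, against 8.16, 7.45 and 5.71 for the swaps, a wide spread within both groups. Sprouty genes, feedback inhibitors of FGF signalling, did not share a sign. Spry4 had control log2 intensities of 6.91, 7.34 and 6.84, against 7.48, 8.17 and 7.59 for the swaps, a difference of 0.72 (SE 0.29). It was the 1 gene of the 17 whose groups did not overlap. Every swap array was above every control array there, as in 4.3% of all genes. Spry1, at a low level, had a difference of -0.80 (SE 0.38), and Spry2, named here with its values known, had -0.10 (SE 0.20). Pax8, a paired-box factor of isthmus and hindbrain interneurons, had a difference of -0.61 (SE 0.43). With 1 array left out it ranged from -1.03 without swap array 3 to -0.28 without swap array 2. The adjusted p in limma was 1.00 for the Sprouty genes and Pax8. Fgf8, Wnt1, Cnpy1 and Otx1 are also named with their values known.

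**Figure D2:**
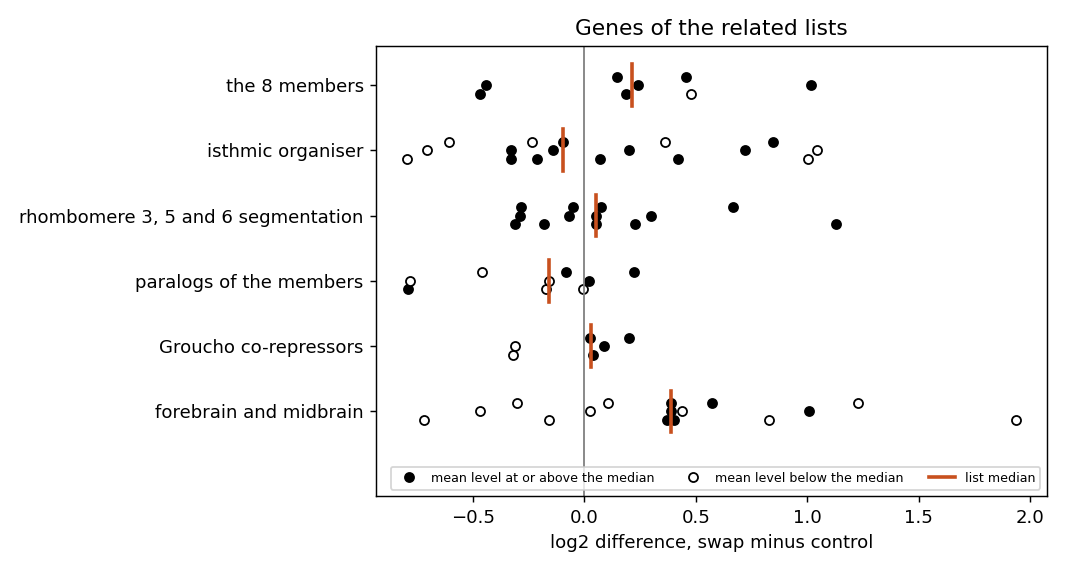
Log2 difference, swap minus control (horizontal axis), of each measured gene in the 8 members and in 5 related gene lists (rows). Filled points have a mean level at or above the median of all probe sets, open points a level below it, and orange bars mark list medians, which run from -0.16 for the paralogs to 0.39 for forebrain and midbrain.

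Egr2, the factor of rhombomeres 3 and 5, is also an immediate early gene and is known from glial precursors and macrophages. Its brighter probe set had intensities of 659, 866 and 675 in the controls, against 1083, 789 and 746 in the swaps. Swap array 1 was the highest, and the remaining 2 swap arrays lay inside the range of the control arrays. Mean log2 intensities were 9.51 ± 0.22 (control) and 9.75 ± 0.29 (swap, SD, n = 3 arrays per genotype). This is a log2 difference of 0.24 (SE 0.26, 95% interval -0.40 to 0.89), an interval within 2-fold. The dimmer probe set of Egr2 gave 299, 544 and 590 in the controls, against 518, 467 and 583 in the swaps. There control array 1 was the lowest, and the log2 difference was 0.18 (SE 0.33). The probe sets disagree on which array stands out, and in neither did the genotypes separate. For the brighter probe set the difference was 0.08 without swap array 1 and 0.0043 without both arrays numbered 1.

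Genes that share a segment or a response with Egr2 were followed by array. The list for rhombomeres 3, 5 and 6 had 13 of 16 genes measured, all at or above the median level, with 7 higher, 6 lower, 0 called in either direction and a median log2 difference of 0.05. Its smallest p belonged to Fgf3, a growth factor of the hindbrain (1.13, SE 0.64), Hoxb3 (0.30, SE 0.23) and Hoxd3 (0.67, SE 0.53), genes of hindbrain segments behind rhombomere 4. For Fgf3 and Hoxb3, 2 of the 13 genes, every swap array was above every control array, as in 4.3% of all genes. With 1 array left out, the Fgf3 difference ranged from 0.43 without control array 1 to 1.52 without control array 2. That of Hoxb3 ranged from 0.16 without swap array 1 to 0.41 without swap array 2. That of Hoxd3 ranged from 0.24 without control array 1 to 1.03 without swap array 1. Epha4, the Eph receptor that Egr2 activates in rhombomeres 3 and 5, named here with its values known, averaged 13.01 in controls and 12.96 in swaps, a difference of -0.05 (SE 0.21). Nab1 and Nab2, co-repressors that bind Egr proteins and were likewise chosen with their values known, had differences of -0.31 (SE 0.30) and -0.18 (SE 0.34).

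Immediate early genes, which respond within minutes to cell dissociation, varied between arrays of the same genotype. Their 16 intensities summed to between 11242 and 18990 in the control arrays and to between 12468 and 20765 in the swap arrays, and their log2 differences had a median of -0.07. Egr1, a relative of Egr2 in this list, had control log2 intensities of 11.14, 11.96 and 11.63, against 11.25, 11.40 and 12.14 for the swaps. Swap array 1, the highest in the brighter Egr2 probe set, was the second lowest in Egr1. Swap array 3 was the highest in Egr1 and the lowest swap array in that probe set. The control arrays had the same order in Egr1 and the brighter probe set. In the dimmer probe set, as in Egr1, control array 1 was the lowest of all and swap array 3 the highest swap array. The part of an immediate early response in the Egr2 signal was not tested. Jun differed by -0.08 (SE 0.35) and Klf6 by 0.19 (SE 0.28).

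Genes listed as markers of the other cell types in which Egr2 is known gave signal on these arrays. Which cells gave that signal was not determined. Macrophage genes, 12 of 12 measured, summed to between 826 and 20471 in the control arrays and to between 3135 and 6044 in the swap arrays. C1qb, a complement gene of macrophages, stood at a log2 intensity of 13.41 in control array 2 and at 8.08 in control array 1. Control array 2 was also the highest control array of the brighter Egr2 probe set, while control array 3 was that of the dimmer one. Swap array 1, the highest in the brighter Egr2 probe set, was the lowest swap array in C1qb, at 10.26. Genes of neural crest and Schwann cell precursors, 9 of 11 measured, summed to between 27132 and 28415 in the control and to between 24517 and 29459 in the swap arrays. Ednrb and Fabp7, bright genes of that list, differed by -0.12 (SE 0.23) and -0.11 (SE 0.23), and Tfap2b by 0.10 (SE 0.24). The part of these cells in the Egr2 signal was not tested.

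The start regions of Egr2 were searched for the CArG box, the site of serum response factor at immediate early genes, and for TGATNNAT, the form of many joint Hox and Pbx sites, both on either strand. The motifs share no bases in these entries. A CArG box occurred in 4 of the 13 entries, all of Egr2, and in 1.63% of all 32851 entries. Egr2 has 5 of the 13 entries, and the 4 with a match share 2 distinct boxes, so they do not count separately. TGATNNAT occurred in 3 of the 13, again all of Egr2 and overlapping each other, and in 8.85% of all entries. The 3 stretches of 30 bases are on the plus strand of chromosome 10 in GRCm38.p6, at chr10:67537484-67537513, chr10:67537787-67537816 and chr10:67537873-67537902. They are shown, with the motif in capitals, because Egr2 belongs to a segment and to the immediate early genes at once.
Egr2 CArG stretch 1: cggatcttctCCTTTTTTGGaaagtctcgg
Egr2 CArG stretch 2: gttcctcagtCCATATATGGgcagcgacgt
Egr2 TGATNNAT stretch: agagcagcgatTGATTAATagctgggcgag
Each CArG box begins at -72 relative to a start site of its own. These are letters found in a window, and no use of any stretch was measured.

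Irx3, a factor of neural tube progenitors whose probe set gave the highest intensities of the 9, had intensities of 1115, 1150 and 1245 in the controls, against 1138, 1194 and 1597 in the swaps. Swap array 3 stood above the other 5 arrays, which lay close together. Mean log2 intensities were 10.19 ± 0.08 (control) and 10.34 ± 0.26 (swap, SD, n = 3 arrays per genotype). The log2 difference was 0.15 (SE 0.24, 95% interval -0.44 to 0.73), the narrowest interval of the 8 members, and it allows a fold from 0.740 to 1.66. Without swap array 3 the difference was -0.0039.

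Irx2 had intensities of 594, 280 and 545 in the controls, against 455, 525 and 563 in the swaps. Control array 2 was the lowest of all, and the swap arrays lay between it and control array 1. The genotypes had a log2 difference of 0.19 (SE 0.35, 95% interval -0.68 to 1.06), and it turned to -0.15 without control array 2. That array also held the most macrophage signal, and their relation was not tested.

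Irx1 had intensities of 169, 141 and 117 in the controls, against 84.6, 134 and 94.3 in the swaps. Swap arrays 1 and 3 were the lowest, and swap array 2 lay inside the range of the control arrays. The log2 difference was -0.47 (SE 0.29, 95% interval -1.17 to 0.24), with limma's adjusted p at 1.00. It ranged from -0.66 to -0.33 with 1 array left out and was -0.20 without both arrays numbered 1.

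Iroquois genes stand in a pair of clusters, with Irx1, Irx2 and Irx4 as neighbours on chromosome 13 and Irx3, Irx5 and Irx6 as neighbours on chromosome 8. In the first cluster, the log2 differences were -0.47 for Irx1, 0.19 for Irx2 and -0.46 (SE 0.92) for Irx4. In the other, they were 0.15 for Irx3, 0.22 (SE 0.43) for Irx5 and -0.17 (SE 0.59) for Irx6. Each of these paralogs turned when 1 array was left out, Irx4 to 0.56 without swap array 2, Irx5 to -0.18 without control array 2 and Irx6 to 0.18 without control array 1. Irx4 and Irx6 lay below the median level, and all 3 paralogs outside the members are given for their place in the clusters. Irx2 and Irx5 shared their lowest array, control array 2, with Irx5 at a log2 intensity of 6.98 there and at 7.80 to 8.57 in the other 5 arrays. Neither cluster had a gene past limma's test. At an unadjusted p under 0.05 there were 3 of 16 genes in the forebrain and midbrain list, 0 of 17 in the isthmic list, 0 of 13 in the list of segments, 0 of 9 paralogs, 0 of 6 co-repressors and 1 of 22 genes of adult organs. Against the 3.63% of all genes, a count of 0 in lists this small does not set them apart, and no difference between lists was tested.

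**Figure D3:**
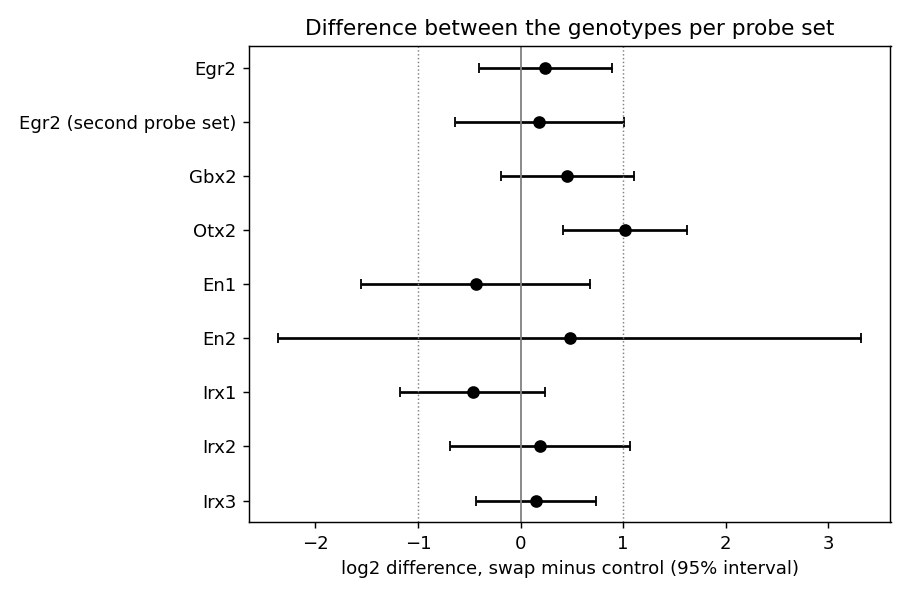
Log2 difference, swap minus control (horizontal axis), of the 9 member probe sets with 95% intervals from limma, and dotted lines at 2-fold. The interval of Otx2 alone lies above 0, from 0.42 to 1.62, before adjustment over all probe sets, and those of Irx3 and the brighter Egr2 probe set lie within 2-fold.

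What these arrays could resolve differed between the members. Egr2 and Irx3 had intervals within 2-fold, so 2 of 8 members did, against 43.4% of all genes and 68.1% of genes at or above the median level. The intervals of Irx2 and Gbx2 reach folds of 2.09 and 2.16, and those of Irx1 and En1 reach 0.444 and 0.341. Groucho co-repressors, the partners through which engrailed proteins repress their targets, had 6 of 6 genes measured, 4 higher, 2 lower, 0 called and a median log2 difference of 0.03. Their lowest p values were those of Tle2 (-0.32, SE 0.44) and Tle6 (-0.31, SE 0.45), both dim, and Tle1 (0.20, SE 0.30).

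**Figure D4:**
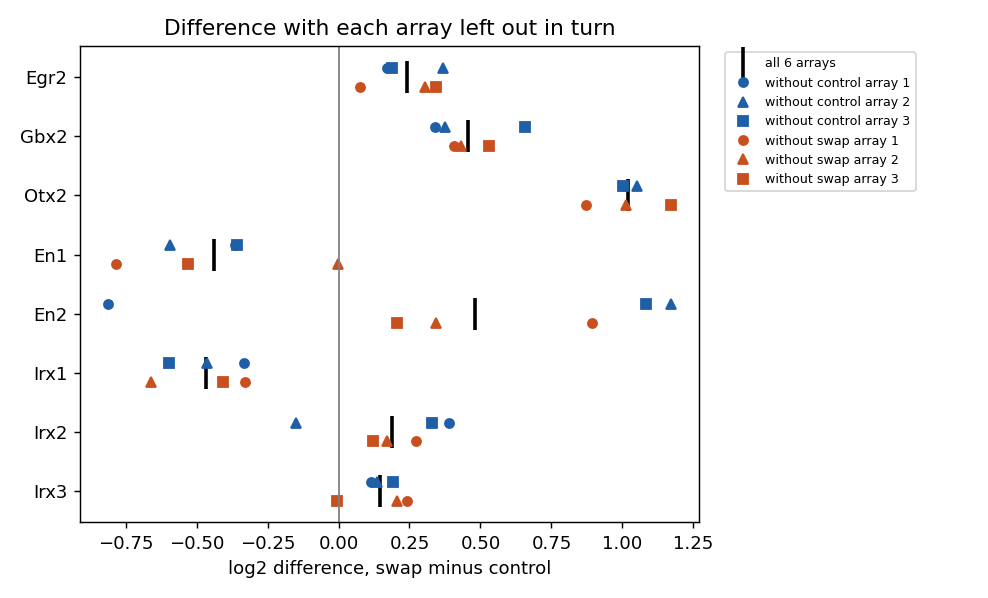
Log2 difference, swap minus control (horizontal axis), of each member with all 6 arrays (black bar) and with each array left out in turn (blue for control arrays, orange for swap arrays). Otx2 stays between 0.87 and 1.17, En2 runs from -0.81 to 1.17, and En1, Irx2 and Irx3 come to or past 0 when 1 array is left out.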

How the data were processed

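The authors deposited linear intensity values, 1 per probe set and array, for Affymetrix mouse genome arrays. They name the affy package, per the submitters' processing notes. Its version and how background was removed and probes were summarised are not stated in these sources. All 6 arrays have a 2% trimmed mean of 500. After 64 array controls were taken out, log2 was taken without an offset and swap minus control was fitted over all 45037 probe sets with limma 3.58.1 (lmFit, eBayes) under R 4.3.3. Its two-sided p were adjusted by Benjamini-Hochberg, with a threshold of 0.05. Symbols came from the platform's probe table, where 34945 probe sets have 1 symbol, 932 several and 9160 none, and 34741 Entrez identifiers matched RefSeq. p-values measure the spread between litter pools.

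The members and gene lists were chosen with earlier results of these data known. Named are all members, the 3 smallest p of the isthmus, segment, paralog, co-repressor and forebrain lists, and the 3 brightest genes of lists for other cell types, of which the text prints those beside a result. Lists of branchial mesenchyme and of otic vesicle and surface ectoderm had 0 genes called, with medians of -0.03 and 0.12. A further gene is not reported here. The fit was tested on simulated data.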

Additional observations from a re-analysis of the deposited data

How the results depend on the processing

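limma called 0 probe sets under all 15 alternatives run, with a smallest adjusted p of 0.241 and 801 to 2375 features at an unadjusted p under 0.05. Of 119 values of the 8 members under these alternatives, 115 kept direction and stayed uncalled, and 4 turned. Part of the 115 were fixed in advance. The replicate block, the filter at the median level and a variance prior that follows the level cannot change a difference. The mean of a gene's probe sets cannot change it for genes with a single probe set. With 1 array left out, the log2 differences ranged from 0.08 to 0.37 for Egr2, 0.34 to 0.66 for Gbx2, 0.87 to 1.17 for Otx2, -0.79 to -0.00080 for En1, -0.81 to 1.17 for En2, -0.66 to -0.33 for Irx1, -0.15 to 0.39 for Irx2 and -0.0039 to 0.24 for Irx3. En2 was at -0.40 without both arrays numbered 1. It gave no value with the filter at the median level, and it was at 0.14 with array weights. An offset of 64 before log2, which damps low signals by construction, brought En2 to 0.015, En1 from -0.44 to -0.26, Irx1 from -0.47 to -0.30 and Gbx2 from 0.46 to 0.30. Limma's adjusted p for Otx2 ran from 0.636 to 1.00 over its alternatives. Deviations of same-numbered arrays correlated at 0.23, 0.03 and 0.22 across 22519 probe sets. The closest swap array had the same number for control arrays 1 and 3, but not for control array 2. These values do not settle whether replicate numbers pair the arrays. The series design names no pairing, so the main fit left the numbers out. With the replicate block 0 probe sets were called, 2323 had an unadjusted p under 0.05, and the members' differences were the same by construction. Leaving out 1 array was added for 31 list genes named in the report, a choice made after seeing the data. None of the 31 was called, and 14 turned, with ranges of -0.75 to 0.38 for Otx1, -0.53 to 0.35 for Fgf8, -0.11 to 0.036 for Epha4, -0.37 to 0.088 for Nab2, -0.25 to 0.21 for Egr1, -0.33 to 0.16 for Jun, -0.57 to 2.10 for C1qb, -0.21 to 0.025 for Ednrb, -0.022 to 0.19 for Tfap2b, -1.23 to 0.56 for Irx4, -0.18 to 0.62 for Irx5, -0.75 to 0.18 for Irx6, -0.63 to 0.053 for Tle6 and -0.031 to 0.42 for Tle1.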

Other observations

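The genes whose log2 values, centred on their own mean over the 6 arrays, lay closest to a member were found among 10697 genes at or above the median level. Likeness is the root mean square difference in log2 units over 6 arrays, and with so many candidates a close match arises for almost any pattern. Otx2, whose values span 1.35, lay closest to Myo7a, a myosin of sensory hair cells, at 0.133, and to the phosphodiesterase Pde5a at 0.144. The control log2 values of Myo7a were 7.18, 7.43 and 7.45, against 8.40, 8.18 and 7.89 for the swaps. Egr2 lay closest to the kinase Gsk3a at 0.0514 and Rhob at 0.0599, Gbx2 to Fam221a at 0.0640, En1 to Brdt at 0.146, Irx1 to Deptor at 0.0678, Irx2 to Cptp at 0.0837 and Irx3 to Rnf11 at 0.0305.

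Among the members themselves the closest pair was Egr2 and Gbx2, at 0.314, and the most distant was En1 and En2, at 1.65. The log2 ratio of En1 to En2 signal came to 4.07, -0.35 and 0.29 in the controls, against 1.94, -0.73 and 0.06 in the swaps, so both arrays numbered 1 stood above the other 4. The pairs of Irx genes lay at 0.352 (Irx2 and Irx3), 0.455 (Irx1 and Irx3) and 0.521 (Irx1 and Irx2).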
